A study of Homo sapiens with 8 samples.

Results

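The genes of 10 chromatin proteins that act at UV lesions were followed across ATAC-seq peak lists of 8 libraries. They encode the SWI/SNF ATPases SMARCA4 and SMARCA2, the SWI/SNF subunits SMARCB1, ARID1A and ARID1B, the ATPases SMARCA5, INO80, CHD1 and CHD1L, and the poly(ADP-ribose) polymerase PARP1. Every accessible region that overlapped the span of a gene (GENCODE release 44, build hg38) or the 5 kb on either side was taken. Regions of the 8 lists that overlapped or touched were merged into sites, which gave 284 sites of 547779 in the whole genome. None was shared by a pair of the genes, and ARID1B, the longest gene (435 kb), held 84 of them.

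ATAC-seq uses the transposase Tn5, which inserts sequencing adapters into open DNA. The cells were U2OS, a human osteosarcoma line, either wild-type (WT) or disrupted in the gene of the histone methyltransferase ASH1L (ASH1L-/-) by CRISPR/Cas9 and grown from individually isolated colonies. Each genotype was left unchallenged (no UV) or was irradiated with UV-C at 20 J per square metre and collected 3 h later, with 2 libraries in each of the 4 groups, which the labels call biological replicates. All cells were treated with DNase before collection to digest DNA of dead cells. Both genotypes carry the same U2OS background, and the differences described are between these lines.

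Nucleosomes can hinder the repair of UV lesions. Chromatin remodelers use ATP to slide, evict or exchange nucleosomes, and belong to the SWI/SNF, ISWI, INO80 and CHD families. PARP1 binds damaged DNA and makes poly(ADP-ribose), to which CHD1L binds through its macro domain. The data give the accessibility of the genes that encode these proteins, and not where the proteins bind.

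The lists held between 158198 and 220783 regions. Their depth, taken as the mean background pileup that the deposited fold enrichments and p-values imply, lay between 1.39 and 5.87, with both extremes in unchallenged ASH1L-/- cells (replicate 1 the deepest, replicate 2 the shallowest). Regions were wider after UV, with median widths between 356 and 444 bp against 242 to 291 bp, so presence and rank after UV come from lists of another kind. The promoter of ASH1L itself had a region in all 8 lists and does not check the knockout. Of 6 genes of mesenchymal or osteosarcoma cells, VIM, CAV1, RUNX2 and TEAD1 had a promoter region in all 8 lists. COL1A2 had one in 7 lists and TWIST1 in 2. Of 8 genes of other lineages, PECAM1, CDH1, EPCAM and GFAP also had a promoter region in all 8 lists. PTPRC and ALB had one in 1 list each, and CD3E and MYOD1 had none in any list. Presence at these promoters therefore does not identify the lineage of the cells.

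Fold enrichment was not normalised between lists, so each region was given its percentile within its own list. A promoter site had an annotated start of transcription (transcription start site, TSS) of any protein-coding gene at 1 kb or less, and an internal site lay elsewhere in the gene. Few sites were shared by the libraries. A region in all 8 lists was found at 24 of the 284 sites (8.45%, against 11.0% of all sites of the genome), and 193 were in 1 list only. Promoter sites were in all 8 lists at 16 of 72 (22.2%, genome 30.3%) and internal sites at 5 of 201 (2.49%, genome 8.03%).

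In each of the 8 libraries the promoter sites ranked above the internal sites, except that with a window of 2 kb around the TSS the order turned in ASH1L-/- cells 3 h post UV, replicate 1 (-4.47 points). The difference of their median percentiles lay between 19.3 points in ASH1L-/- cells 3 h post UV (replicate 1) and 53.4 points in unchallenged ASH1L-/- cells (replicate 2), with a mean of 34.0 points. Over all protein-coding genes it lay between 12.5 and 30.2 points. Sites of a gene share their neighbourhood and are not replicates, so no test was made.

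The 10 genes fell into separate kinds at their start. Of the SWI/SNF ATPases, SMARCA2 (chromosome 9) had a site over its canonical TSS at percentiles 97.3 and 93.1 without UV and 90.5 and 82.0 after UV in WT cells, and 98.3 and 95.2 without and 85.8 and 96.4 after UV in ASH1L-/- cells. Its paralogue SMARCA4 (chromosome 19) had no site over its TSS. The nearest one, with its summit at -650 bp, was called in 5 lists at percentiles 16.9 to 64.1. The strongest promoter site of SMARCA4 in all 8 lists instead lay in intron 29 of the canonical transcript, near the start of a shorter annotated transcript, at percentiles 79.4 to 89.2.

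The other SWI/SNF subunits also had weak sites at their canonical TSS. SMARCB1, a core subunit of the complexes, had one in 6 lists, at percentiles 21.0 to 68.0. This site (chr22:23786642-23787976) had its summit downstream of the TSS. Regions over the 250 bases before to 50 after the TSS were in 5 lists, at percentiles 3.52 to 56.4. ARID1A, the DNA-binding subunit of canonical BAF complexes, had a site at its canonical TSS in 7 lists at 8.9 to 74.7. Upstream of it, a site over the first base of the annotated gene (chr1:26692298-26693405) was in all 8 lists, with a mean percentile of 81.8. The ARID1A site in intron 12 ranked at 93.7 to 98.5 in all 8. ARID1B, the paralogue of ARID1A, had a site at its TSS in 7 lists at 11.3 to 73.4. Its sites in intron 1 (51119 bp downstream of the TSS) and intron 7 ranked at 81.1 to 96.0 and 84.4 to 96.7. These intron sites of ARID1A and ARID1B counted as promoter sites, since an annotated TSS lay at 1 kb or less.

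Among the remaining genes, each had a site at its TSS in all 8 lists. SMARCA5, the ISWI ATPase, ranked highest, in WT cells at 99.7 and 98.8 without UV and 98.0 and 95.1 after it, and in ASH1L-/- cells at 98.3 and 99.4 without UV and 97.5 and 97.5 after it. CHD1 ranked at 93.5 to 97.5, CHD1L at 83.5 to 94.7, PARP1 at 78.5 to 95.4, and the site just upstream of INO80 at 73.0 to 93.4. The promoter of CHD1L is shared with the start of FMO5 on the other strand, and the site cannot be divided between them.

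**Figure D1:**
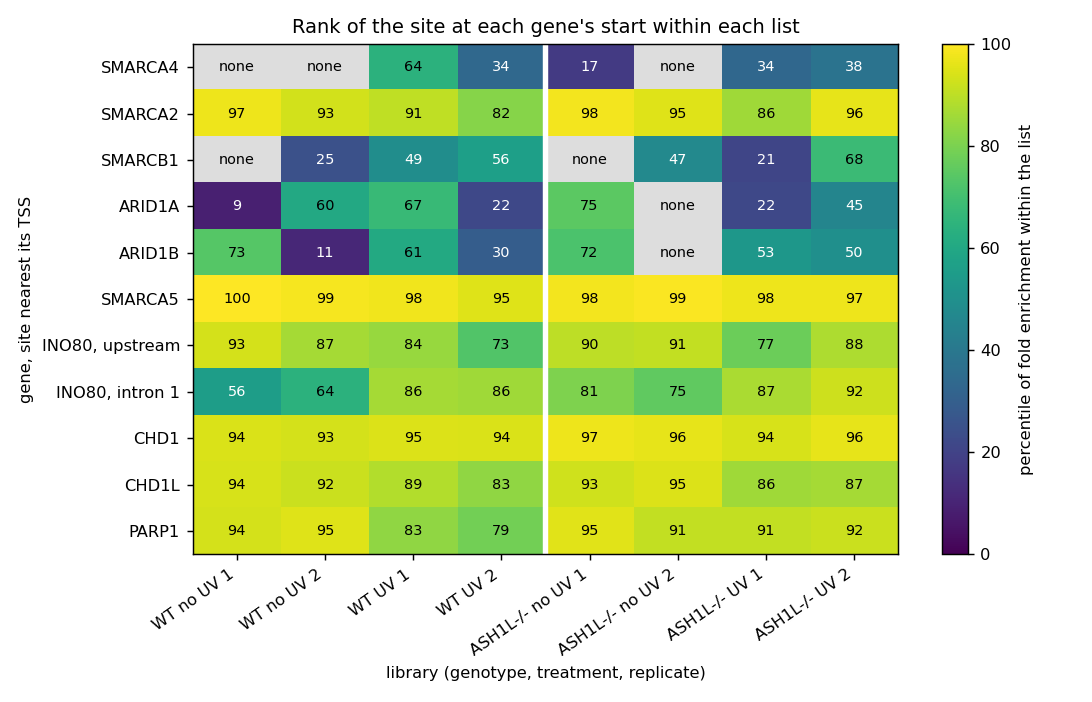
Percentile of fold enrichment within each list (colour and number, 0 to 100) of the site nearest the canonical TSS of each gene (rows; INO80 has 2), in the 8 libraries (columns). Grey cells marked none had no region: they occur at SMARCA4, SMARCB1, ARID1A and ARID1B and at no other gene.

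The sequence at these starts differed as well. The promoter windows of RefSeq (GRCh38.p14, 250 bases before to 50 after the start, 15315 promoters, all 10 genes matched) of SMARCA5, which ranked highest, of ARID1A and of SMARCA4 are shown to let the composition be compared. Capitals mark the GC box (GGGCGG) and NRF1 motif letters on either strand. CCAAT, ETS (CCGGAAG) and CRE (TGACGTCA) letters were searched too and are not in these windows.
SMARCA5, chr4:143513452-143513751, plus strand: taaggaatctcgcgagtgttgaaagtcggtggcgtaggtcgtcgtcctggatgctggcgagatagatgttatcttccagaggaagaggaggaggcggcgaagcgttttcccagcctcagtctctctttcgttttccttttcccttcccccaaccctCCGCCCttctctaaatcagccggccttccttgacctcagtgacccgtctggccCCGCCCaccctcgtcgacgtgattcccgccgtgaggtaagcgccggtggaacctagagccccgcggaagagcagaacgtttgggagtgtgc
ARID1A, chr1:26695765-26696064, plus strand: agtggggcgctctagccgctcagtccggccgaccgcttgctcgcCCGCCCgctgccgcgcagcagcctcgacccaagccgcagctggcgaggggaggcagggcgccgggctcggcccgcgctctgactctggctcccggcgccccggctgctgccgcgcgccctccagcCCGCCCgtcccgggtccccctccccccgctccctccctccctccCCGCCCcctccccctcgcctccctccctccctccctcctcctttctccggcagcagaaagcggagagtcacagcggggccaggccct
SMARCA4, chr19:10960780-10961079, plus strand: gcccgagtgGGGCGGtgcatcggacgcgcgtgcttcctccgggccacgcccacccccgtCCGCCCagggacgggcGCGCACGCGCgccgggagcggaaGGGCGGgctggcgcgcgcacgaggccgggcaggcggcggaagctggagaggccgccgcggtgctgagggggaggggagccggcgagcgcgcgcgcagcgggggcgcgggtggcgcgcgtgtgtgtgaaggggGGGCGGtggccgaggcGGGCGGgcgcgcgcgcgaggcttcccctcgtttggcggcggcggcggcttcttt
The GC content was 59% for SMARCA5, 78% for ARID1A and 81.3% for SMARCA4, the last above 97.9% of all promoters. A region overlapped the window in all 8 lists for SMARCA5, in 6 for ARID1A and in none for SMARCA4.

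Across all promoters, presence rose and then fell with GC content. When all were divided into 10 classes of equal size by GC content, of the lowest class 7.18% had a region in all 8 lists, of those with a GC content between 65.7% and 68.7% it was 73.9%, and of the class above 76%, which holds ARID1A and SMARCA4, it was 34.1%. SMARCA2, INO80, CHD1, CHD1L and PARP1, all with a region in 8 lists, had windows of 66.7% to 70.7% GC. SMARCB1 did not follow this order, since its window of 61.7% GC was covered in 5 lists. For ARID1B the RefSeq window belongs to another start, at -1352 bp from the canonical TSS. It was covered in none of the lists at 37.7% GC, while the same window at the canonical TSS had 72% GC. A GC box was found in the windows of 9 of the 10 genes and in 59.2% of all promoters. A match to such letters is a description and not a site of binding.

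**Figure D2:**
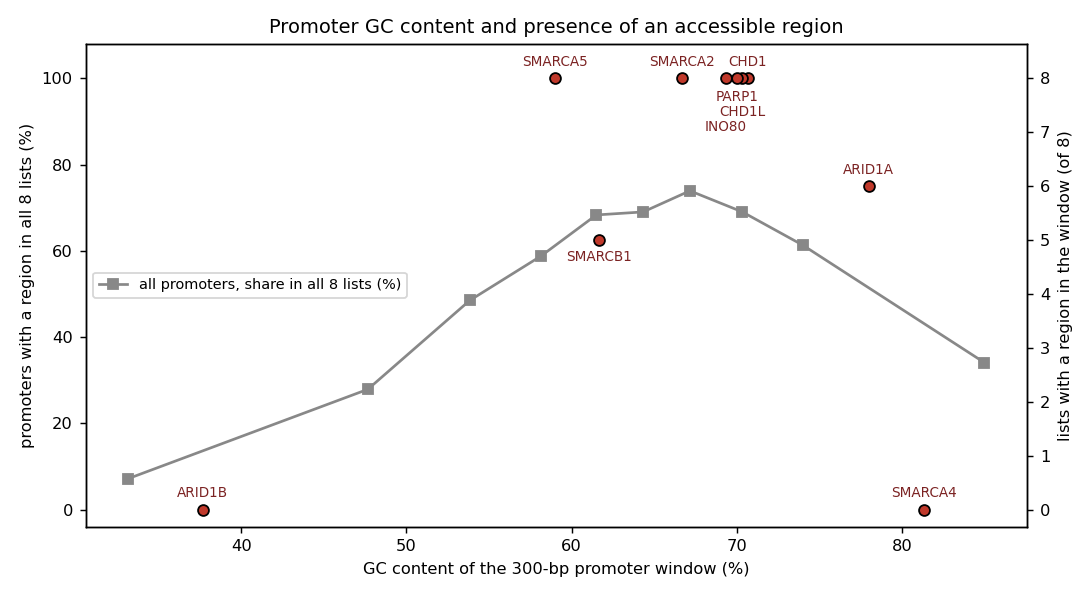
GC content of the 300-bp RefSeq promoter window (horizontal axis, %) against the share of all promoters with a region in all 8 lists (grey squares, 10 classes of 15315 promoters, left axis, %) and against the number of lists with a region in the window for the 10 genes (red points, right axis, 0 to 8). The grey line peaks at 73.9% and ends at 34.1%; SMARCA4 lies at 0 lists and ARID1A at 6.

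Whether UV changed the rank of these sites was tested at the 24 sites that all 8 lists held. The percentile after UV was compared with that of unchallenged cells in a limma fit over all 60324 such sites of the genome, with genotype as a second term and Benjamini-Hochberg adjustment over all of them. At adjusted p of 0.05 or less, 1 of the 24 sites was higher after UV, where 2.37% of all sites were, and 1 was lower, where 3.6% were. The split of the genome between higher and lower depended on the scale, with 1427 and 2169 sites here, 4702 and 3892 when ranks were taken among these sites alone, 2750 and 2765 with lists of equal length and 1565 and 1258 with regions of a q-value below 0.05. Of the 24 sites 1 was higher and 1 lower on each of these scales.

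The site that rose was in intron 1 of INO80, the ATPase that gives its complex its name (chr15:41115267-41116076, summit 498 bp downstream of the TSS). In WT cells it ranked at 55.8 and 64.2 without UV and at 86.4 and 85.6 after UV, and in ASH1L-/- cells at 80.8 and 75.4 without UV and at 87.5 and 92.4 after UV. All 4 UV libraries lay above all 4 unchallenged ones, with means of 88.0 ± 3.04 and 69.0 ± 11.2 (SD, n = 4 each). Each SD covers both genotypes. The difference was 18.9 ± 4.68 points (SE, adjusted p = 0.0423, limma). The neighbouring site upstream of the same TSS (chr15:41116311-41117125) differed by -9.56 ± 3.68 points and did not pass (adjusted p = 0.13).

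The site that fell lay upstream of SMARCB1, with its summit at -2250 bp from the TSS (chr22:23784311-23784824). Its percentiles were 75.4 and 76.3 (no UV) and 7.2 and 28.9 (UV) in WT cells, and 81.9 and 71.7 (no UV) and 57.1 and 43.7 (UV) in ASH1L-/- cells. Again the treatments did not overlap, and the libraries of WT cells after UV were the lowest. The difference was -42.1 ± 9.38 points (SE, adjusted p = 0.0328, limma). Each of these calls was lost in 7 of the 8 fits that left out 1 library, with differences between 15.8 and 21.4 points at INO80 and between -47.9 and -34.6 points at SMARCB1. INO80 kept its call without replicate 1, and SMARCB1 without replicate 2, of unchallenged ASH1L-/- cells.

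The INO80 site counted as a promoter site and the SMARCB1 site did not. No other promoter site passed. CHD1L came nearest, with -7.30 ± 1.94 points (SE, adjusted p = 0.0514, limma), and its 4 UV libraries (83.5 to 88.7) lay below its 4 unchallenged ones (92.0 to 94.7). On normal scores of the rank it passed. PARP1 differed by -7.54 ± 2.65 points (adjusted p = 0.104), with both WT libraries after UV (83.4 and 78.5) below all the others (90.8 to 95.4). SMARCA2 differed by -7.30 ± 2.60, SMARCA5 by -2.01 ± 0.79 and CHD1 by -0.58 ± 1.05 points (adjusted p = 0.108, 0.135 and 0.756). Of the 16 promoter sites 12 had a difference below 0, a share close to the 11249 of 15134 promoter sites of the genome, with a median of -4.50 points beside -2.79 points.

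Of the internal sites 5 were in all 8 lists, and none of them passed for UV. ARID1A held 3, of which that in intron 4 ranked highest (mean percentile 92.9, UV difference 0.82 ± 1.51 points, SE). ARID1B held 2 in intron 4, of which the higher had a mean percentile of 81.7 and a UV difference of -3.56 ± 4.30 points. SMARCA4, SMARCA2, SMARCB1, SMARCA5, INO80, CHD1, CHD1L and PARP1 had no internal site that all lists held.

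Between the genotypes none of the 24 sites passed the limma fit (0% of all sites higher and 0% lower in ASH1L-/- cells). At an unadjusted p under 0.05 there were 2 of 24 (8.33%, beside 9.55% of all sites). The exact permutation test with adjustment called 0 of them and no site of the genome (smallest adjusted p = 0.701). Its smallest attainable p before adjustment is 0.0286, so its result adds little here. The contrast of the UV differences (WT less ASH1L-/-) passed at no site either (0% higher and 0% lower over the genome, 2 of 24 or 8.33% at an unadjusted p under 0.05, beside 2.93% of all sites). Both of these sites for the contrast were promoter sites (2 of 16 or 12.5%, beside 2.09% of promoter sites of the genome). One of them was the PARP1 promoter, with -11.5 ± 4.23 points (SE, unadjusted p = 0.0215, adjusted p = 1). A p-value above the threshold does not show that the genotypes are alike.

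The number of accessible regions over each gene was compared next, with an exact permutation test (two-sided, 4 libraries against 4, smallest attainable p 0.0286). ARID1B stood out. The WT libraries held 42 and 41 regions without UV and 27 and 27 after UV, and the ASH1L-/- libraries 11 and 16 without UV and 17 and 21 after UV. Every WT library thus had more regions than every ASH1L-/- library, with means of 34.2 ± 8.38 and 16.2 ± 4.11 (SD, n = 4 each, ratio 0.474, p = 0.0286, exact permutation test). Each SD covers both treatments, and the test did not keep the treatments apart. It was the only one of the 10 genes called, where 1.49% of 19252 protein-coding genes had fewer regions in ASH1L-/- cells and 1.51% more. After Benjamini-Hochberg adjustment over those genes no gene passed (smallest adjusted p = 0.955). The deepest library of all, replicate 1 of unchallenged ASH1L-/- cells, had the fewest ARID1B regions. Without that library p was 0.0857, although the genotypes still did not overlap.

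The other genes overlapped between the genotypes. INO80 held 12 and 11 regions in unchallenged WT cells, 6 and 5 after UV, and 12 and 5 and then 9 and 6 in ASH1L-/- cells. PARP1 held 5 and 5, then 7 and 4 in WT cells, and 2 and 2, then 3 and 5 in ASH1L-/- cells (p = 0.114, exact permutation test). ARID1A ranged from 6 to 15 regions, SMARCA4 from 3 to 13, SMARCB1 from 7 to 11, SMARCA2 from 3 to 11, CHD1L from 2 to 6, SMARCA5 from 3 to 4 and CHD1 from 1 to 2. For UV none of the 10 genes was called, where 1.36% of all genes had more regions and 1.11% fewer.

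**Figure D3:**
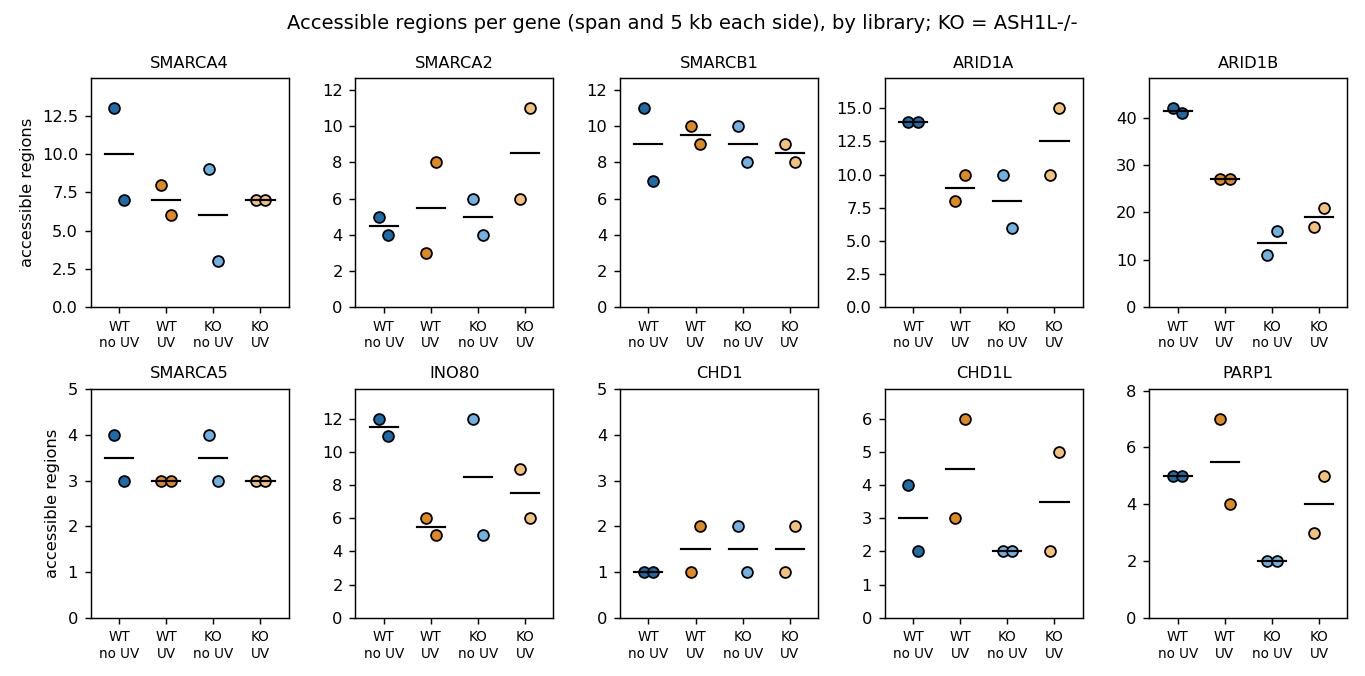
Number of accessible regions over each gene and 5 kb on either side (vertical axis, from 0, own scale per gene) in the 4 groups (KO = ASH1L-/-); points are libraries and bars are means of 2. ARID1B is the gene in which the 4 WT libraries (27 to 42) lie above the 4 ASH1L-/- libraries (11 to 21).

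The ARID1B sites that ASH1L-/- libraries lacked were mostly found in 1 list. Of its 84 sites 55 were found in WT libraries only, 7 in ASH1L-/- libraries only and 22 in both. The sites found in WT only had a median percentile of 32.6 and those found in both of 57.0. Of the WT-only sites 8 were in 2 or more lists, and of the ASH1L-/- only sites none. A site found in both is in 2 or more lists by definition, so the 2 medians do not compare like classes. The 6 sites in all 8 lists did not pass for genotype, with differences of -3.57 points (intron 1) to 7.74 points (just downstream of the TSS). These 6 sites were selected for a region in every list, so they cannot show a site that was lost. Fewer regions over the gene stood beside ranks at these sites for which no difference was detected.

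**Figure D4:**
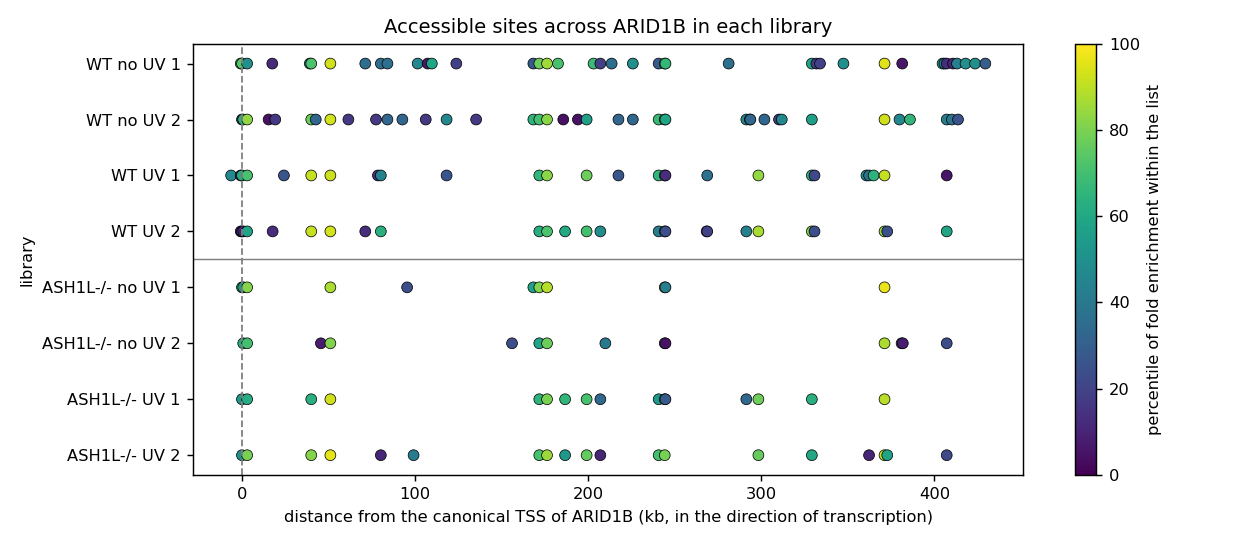
Sites across ARID1B by distance of their summit from the canonical TSS (horizontal axis, kb) in each of the 8 libraries (rows); each point is a site with a region, coloured by its percentile within the list (0 to 100). The upper 4 rows (WT) hold more, mostly dark points; the bright points in introns 1 and 7 (51119 and 371233 bp) recur in every row.

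The lower number was not particular to ARID1B. In every window of 1 Mb from 12 Mb before to 14 Mb after its TSS the mean of the ASH1L-/- libraries was below that of WT, at ratios of 0.56 to 0.842. The 1 Mb on either side of the gene together held 168 ± 19.6 regions in WT and 106 ± 14.4 in ASH1L-/- libraries (SD, n = 4 each, ratio 0.634), although the whole ASH1L-/- lists were 1.07 times as long as those of WT. Per 100 regions in these flanks, ARID1B held 20.2 ± 3.40 in WT and 15.3 ± 3.40 in ASH1L-/- libraries (p = 0.0857, exact permutation test), so the call was lost on that scale. These SDs also cover both treatments. In bins of 10 Mb the ratio was 0.646 to 0.768 in the 5 bins of chromosome 6 from 130 Mb on, and 0.959 to 1.30 in the 13 bins before. Of 302 bins of the genome 14.9% were at or below 0.85. These windows and the flank scale were chosen after the values had been seen.

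**Figure D5:**
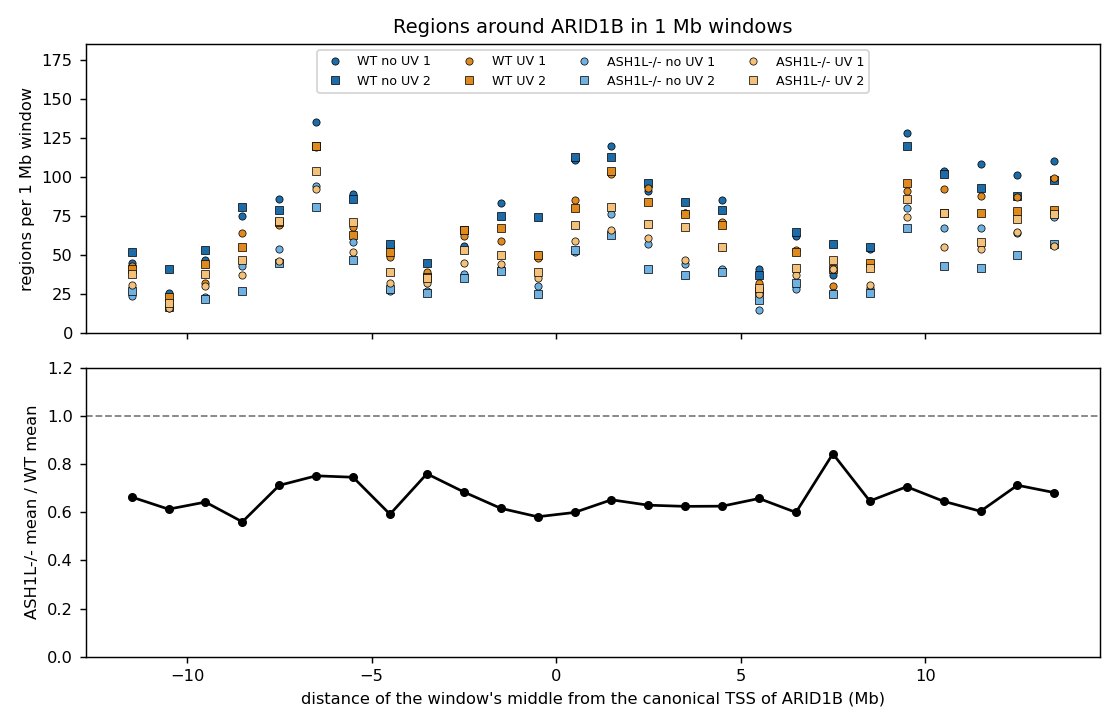
Regions in windows of 1 Mb (upper panel, count per library, from 0) and the ratio of the ASH1L-/- mean to the WT mean (lower panel, from 0; dashed line at 1) by distance from the TSS of ARID1B (Mb). Every ratio lies between 0.56 and 0.842.

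CHD1L and PARP1 lie on the long arm of chromosome 1, where the same held. The 11 bins from 140 Mb on had ratios of 0.654 to 0.853, and the 12 bins of the short arm, which holds ARID1A, had 1.03 to 1.31. The 1 Mb flanks had a ratio of 0.756 around CHD1L and 0.832 around PARP1, while around the other 7 genes they had 0.939 to 1.12. A difference of genotype and a difference between colonies of U2OS cells cannot be told apart here, and the number of copies of these segments was not analysed.

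Presence of single sites was compared last. Only 1 of the 284 sites had a region in all 4 UV lists and in no unchallenged list, where 0.686% of all sites had. None showed the opposite (0.0969% of all sites), and none was in all ASH1L-/- lists and no WT list (0.187%) or the reverse (0.0769%). The site gained after UV lay in intron 4 of ARID1B, 298365 bp downstream of the TSS. It ranked at 83.9 and 86.7 in WT cells and at 78.1 and 76.2 in ASH1L-/- cells after UV, and the fold enrichment was 8.79, 13.3, 7.83 and 6.55. Without 1 library, between 1 and 4 sites separated the treatments.

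Another pattern was noticed after the values were seen: 4 of the 284 sites (1.41%) were in every list except those of unchallenged ASH1L-/- cells, where 0.317% of all sites were. Sites missing from only unchallenged WT cells, WT cells after UV or ASH1L-/- cells after UV numbered 0 (0.219%, 0.063% and 0.0427% of all sites). ARID1B held 3 of the 4, at 40067, 240759 and 329244 bp from its TSS, and the neighbourhood with fewer ASH1L-/- regions surrounds them. The fourth was in intron 20 of CHD1L, whose 1 Mb flanks also held fewer regions in ASH1L-/- libraries (ratio 0.756). In WT cells it ranked at 96.9 and 89.5 without UV and at 99.8 and 98.6 after UV. In ASH1L-/- cells it ranked at 91.0 and 90.8 after UV and was absent from both unchallenged ASH1L-/- lists, the deepest included. Of the sites of the 10 genes that were missing from a whole group it had the highest mean percentile (94.4). That mean is over the lists that held the site and leaves out those that lacked it.

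The 200 bases around the summits of the gained ARID1B site and of the CHD1L site are shown because they carry these presence patterns. Capitals mark AP-1 (TGANTCA), RUNX (TGTGGT) and TEAD (GGAATG) letters on either strand; ETS (CCGGAAG) and GC box letters are not in these windows.
ARID1B intron 4, hg38 chr6:157075643-157075842, plus strand: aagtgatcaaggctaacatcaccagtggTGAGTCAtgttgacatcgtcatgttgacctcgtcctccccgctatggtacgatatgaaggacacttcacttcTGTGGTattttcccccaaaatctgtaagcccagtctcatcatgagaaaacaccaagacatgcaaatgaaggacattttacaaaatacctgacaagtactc
CHD1L intron 20, hg38 chr1:147292905-147293104, plus strand: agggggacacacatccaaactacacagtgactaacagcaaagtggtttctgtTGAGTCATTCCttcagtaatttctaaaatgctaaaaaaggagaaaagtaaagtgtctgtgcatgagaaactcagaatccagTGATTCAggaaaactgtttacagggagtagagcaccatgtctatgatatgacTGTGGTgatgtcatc
In the CHD1L window the first AP-1 match runs into the TEAD match. AP-1 letters lie within these 200 bases at the gained site, as at 34.9% of the 3336 sites of the genome outside promoters with that pattern, and at 3 of the 4 sites missing from unchallenged ASH1L-/- cells, beside 32.4% of 1519. Of the sites that all 8 lists held, they are at 2 of 16 promoter sites (genome 8.06%) and 0 of 8 others (genome 28.0%). Counts this small are a description.

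Other remodeler genes served for comparison at their promoters. Of 67 further genes, 62 had a promoter region in all 8 lists. The 67 belong to the SWI/SNF, ISWI, INO80, SRCAP/TIP60, CHD and SNF2 families or encode poly(ADP-ribose) factors. A list counted if it held a region at any annotated TSS of the gene. In this sense all 10 genes described above had one in all 8 lists, as had 68.4% of all protein-coding genes. At SMARCB1 the lists were covered at different starts, and no single site at a start of SMARCB1 itself was in all 8. The promoter site in all 8 lists in its upstream flank (chr22:23781402-23781979) lies at the start of another gene. BRD7, BCL7A, BCL7C, SMARCA1 and HELLS had a promoter region in 2 to 7 lists. At the strongest promoter site 0 of 61 genes tested were higher and 1 was lower after UV (limma), where 0.52% and 3.38% of all protein-coding genes were. That gene was XRCC1, a scaffold of single-strand break repair that binds poly(ADP-ribose), with -4.78 ± 1.23 points (SE, adjusted p = 0.0474). Of the 61 differences 52 were below 0, with a median of -3.12 points, beside 77.7% and -2.62 points over all protein-coding genes. None of the 61 passed for genotype.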

How the data were processed

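ATAC-seq peak lists of 8 U2OS libraries were used, grouped by the sample titles. The authors trimmed reads with cutadapt 1.9.1, aligned them with Bowtie2 2.4.5 to hg38 without chromosome Y, removed duplicates, reads of mapping quality below 30 and blacklisted or mitochondrial reads (SAMtools 1.7, bedtools 2.29.2, Picard), and called peaks per library with MACS2 2.2.7.1. The deposited lists held, per summit, a fold enrichment (a ratio of pileup to local background) and −log10 p-values and −log10 q-values, none normalised between libraries. The deposited score was not used. The running peak numbers have gaps, between 0.0983% and 0.135% of each list, and those numbers were not analysed here, so presence and absence refer to the lists as used.

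A region was a distinct interval with its highest fold enrichment, and its percentile was its rank within the list. Depth was solved from the fold enrichment and the Poisson p-value for up to 20000 pairs per library, with a tolerance of 1%. The lists carry no read counts, so no counting intervals are given. Percentiles of sites in all 8 lists were fitted with limma 3.58.1 in R 4.3.3 (trend, UV and genotype), and numbers of regions were compared by exact permutation over 70 assignments. Python 3.11.15, pandas 2.3.3 and scipy 1.17.1 were used, and the fits were tested on simulated data. Named were all 10 genes with the site nearest their TSS, sites that separate the groups or pass a fit, the strongest internal site per gene in all lists, and other remodeler genes that pass. The genes, lists and comparisons were chosen with earlier results of these data known. Alternatives were q-values below 0.05, lists of equal length, other ranks, 50% overlap, other windows and fits without 1 library.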

Additional observations from a re-analysis of the deposited data

Results flagged for a closer look

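In 3 cases both libraries after UV lay on one side of both unchallenged libraries in WT cells and on the other side in ASH1L-/- cells. The number of ARID1B regions fell by 14.5 after UV in WT cells and was 5.5 higher in ASH1L-/- cells, a contrast of -20 regions that was not tested. The ARID1A site in intron 4 gave a contrast of 4.50 percentile points (3.07 in WT, -1.43 in ASH1L-/- cells) and the CHD1 promoter site one of 2.50 points (0.66 and -1.83), and neither passed the limma fit over all sites (adjusted p = 1 for both). Groups of 2 libraries were too small for a search for outlying libraries.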

How the results depend on the processing

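Of 17 results, 74 of 84 values under other settings and 104 of 136 values without 1 library gave the same call and direction as reported, or moved little. These totals include counts of 0 that stayed 0 and single sites that did not pass in either case. The number of member sites called for UV (2) was 1 with a replicate block and 0 under an exact permutation test with adjustment, in which no site of the genome passed, and 0 to 1 without 1 library. The sites that separated the treatments by presence (1) were 2 with regions of a q-value below 0.05, 2 with 50% overlap and 1 to 4 without 1 library, and those that separated the genotypes (0) were 0 to 2. The genes called for genotype (1) were 0 to 1, lost without replicate 1 of unchallenged ASH1L-/- cells. The promoter minus internal difference of 34.0 points was 46.5 with the canonical TSS only, 23.6 with a TSS window of 2 kb (libraries from -4.47 to 53.4), 28.7 with q-values below 0.05 (from 1.94 to 57.4) and 31.2 to 36.1 without 1 library. The UV difference of the CHD1 promoter turned to 0.033 points with regions of a q-value below 0.05 and lay between -0.98 and 0.13 without 1 library. Over the genome, 0 to 1538 sites were higher and 0 to 1592 lower after UV without 1 library, against 1427 and 2169, and none passed without replicate 1 of ASH1L-/- cells after UV. Normal scores called 3035 and 4240. The causes were not tested.

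The replicate numbers do not pair the samples in the labels. Deviations of equally numbered libraries had correlations of -0.079 to 0.137 between groups, and 1 of 6 exceeded 0.1. With a replicate block, INO80 lost its call, SMARCB1 kept it, and 1155 sites of the genome were higher and 1666 lower. How depth bears on the weak regions was not tested.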
